A study of Homo sapiens with 4 samples.

Results

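The genes described here are 6 STAT transcription factors, STAT2, STAT3, STAT4, STAT5A, STAT5B and STAT6, and 3 Janus kinases, JAK1, JAK2 and TYK2. Their probes were found by gene name among the non-control spots of a human Agilent array, which gave 11 probes of 34127 and 20 spots of 43118 on each array, and each of the 9 genes was among the 22001 genes tested. The study compared MCF10A.B2 cells labelled as control with cells of the same line carrying an shRNA against Pak1 (the human gene is written PAK1 here), a kinase that acts downstream of the small GTPases Rac and Cdc42, with 2 arrays in each group and 1 sample per array. MCF10A is an immortalized, non-tumorigenic line of human breast epithelium, and the B2 derivative carries a chimeric ErbB2 (Her2) receptor that is switched on by the chemical dimerizer AP1510. In both groups the cells were starved of serum for 3 h and then given AP1510 for 15 min, so every array shows cells with the receptor switched on. The shRNA was tetracycline-inducible. The labels name the first group only as control, and the study's methods list the line without an shRNA, which they term wild type, beside the line with it. No array of a non-targeting shRNA was analysed here, so the effect of losing PAK1 and any other effect of carrying and inducing an shRNA cannot be told apart. The labels also do not say whether the arrays of a group came from separate cultures, and p-values then measure only the spread between these samples, which may be technical.

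Janus kinases sit on the inner tails of cytokine and interferon receptors. When a ligand brings the receptor chains together, the kinases phosphorylate each other and the tails, and STAT factors dock there, are phosphorylated in turn, pair up and enter the nucleus to switch on genes. STAT2 works with IRF9 in the response to type I and type III interferons, STAT3 answers the IL-6 family, STAT4 answers IL-12, the near-identical factors STAT5A and STAT5B answer prolactin, growth hormone and many interleukins, and STAT6 answers IL-4 and IL-13. In mammary epithelium STAT5A and STAT5B are best known for milk gene expression and STAT3 for the cell death of involution. An array measures RNA and says nothing of phosphorylation.

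STAT2, JAK2, STAT4 and STAT5A were higher in the PAK1 shRNA cells by more than 2-fold, STAT6 and JAK1 were higher by less, STAT3 rose slightly by 1 of its probes, and STAT5B fell to 46.6% of control. TYK2 did not pass the test.

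The sequences that bear on the reading of these genes are shown first. STAT3 and STAT4 were each measured by a pair of probes that differed in their change, and the TYK2 probe is the one whose gene did not pass the test. Each probe is 60 bases long and is given 5′ to 3′ as on the array, in lower case with no part marked. The positions are those of the array's design on hg19 and all 4 lie on the minus strand: the STAT3 probe A_24_P116805 at chr17:40474404-40474463, the STAT4 probe A_23_P68031 at chr2:191895703-191895762, the STAT4 probe A_23_P305198 at chr2:192011381-192011440 and the TYK2 probe A_23_P141917 at chr19:10464877-10465213. The last span is 337 bases for 60 letters, which leaves 277 bases of the genome between the ends that the probe does not hold. Exon and UTR annotation of hg19 was not used here.
STAT3 A_24_P116805: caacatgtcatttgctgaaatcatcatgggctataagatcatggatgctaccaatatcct
STAT4 A_23_P68031: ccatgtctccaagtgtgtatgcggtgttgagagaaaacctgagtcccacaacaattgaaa
STAT4 A_23_P305198: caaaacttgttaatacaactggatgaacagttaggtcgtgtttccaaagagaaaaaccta
TYK2 A_23_P141917: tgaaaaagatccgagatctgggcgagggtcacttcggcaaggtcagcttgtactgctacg

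The 250 bases before the start of STAT2 and of JAK2 are shown because these genes had the largest rises of the 9. They are from RefSeq on GRCh38.p14, at chr12:56360108-56360357 on the minus strand for STAT2 and at chr9:4984140-4984389 on the plus strand for JAK2, and are printed in lower case with the GC box GGGCGG, read on both strands, in capitals.
STAT2: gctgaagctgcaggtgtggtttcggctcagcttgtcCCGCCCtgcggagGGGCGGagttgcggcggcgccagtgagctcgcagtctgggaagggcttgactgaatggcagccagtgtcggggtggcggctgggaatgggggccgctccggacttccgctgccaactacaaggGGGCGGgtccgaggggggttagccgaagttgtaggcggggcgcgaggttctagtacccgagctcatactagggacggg
JAK2: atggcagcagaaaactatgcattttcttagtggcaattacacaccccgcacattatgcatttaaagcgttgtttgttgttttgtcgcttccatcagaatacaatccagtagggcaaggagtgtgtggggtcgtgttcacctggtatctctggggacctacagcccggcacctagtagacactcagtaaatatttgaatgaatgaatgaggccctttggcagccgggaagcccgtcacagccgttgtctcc
The STAT2 stretch holds 3 GC boxes and its GC content is 67.2%. The JAK2 stretch lies before the outermost of 4 starts listed for that gene, holds 0 GC boxes and has a GC content of 48.4%. The stretches before the other JAK2 starts have a GC content of 75.6%, 68.4% and 58.4%, and the one at 68.4% holds 1 GC box. All 9 genes matched the RefSeq table, with 17 windows of 300 bases (250 before to 50 after a start) of 35116 in all. The interferon-stimulated response element (GAAA, 2 bases of any kind, GAAA), searched on both strands, was in 0 of the 17 windows and in 3.57% of all windows. The gamma-activated site TTCNNNGAA, also read on both strands, was in 0 of the 17 and in 7.66% of all. The GC box was in 7 of the 17 windows, 1 for each of 7 genes, and in 45.0% of all windows. A match is only a match of letters, and the absence of one says only that these letters are not in the window.

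The labelled target was read first. PAK1 was at 11.19 and 11.27 on the control arrays and at 10.44 and 10.52 on the PAK1 shRNA arrays, in normalized log2 intensity, the unit of every level below. The groups did not overlap, and PAK1 fell by 0.75 on the log2 scale (SE 0.08, limma with Benjamini-Hochberg adjustment over all genes, adjusted p = 0.000182), which left 59.5% of the control level. Of the genes tested, 3112 (14.1%) fell further than PAK1. The difference between the groups was wide: at an adjusted p under 0.05, 6822 of the 22001 genes (31.0%) were higher, 7008 (31.9%) were lower and 62.9% passed in either direction. Of the 9 STAT and JAK genes, 7 were higher, 1 was lower and 1 did not pass. The groups did not overlap for 8 of the 9, beside 81.8% of all genes. At 2-fold or more the 9 held 4 higher genes and 1 lower gene, beside 8.85% and 8.96% of all genes. Over the 9 genes the median log2 fold change was 0.79, beside 0.02 over the whole array. For 1 gene at a time, the smallest two-sided p that exact permutation of these 4 arrays allows is 0.333. Permutation alone can thus call no gene, and the calls given here use the spread that limma shares across genes. With each gene's own spread in its place, 6 of the 9 genes were called higher and 1 lower, and STAT3 lost its call. In bulk RNA, fewer cells with a transcript and less of it in each cell cannot be told apart.

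**Figure D1:**
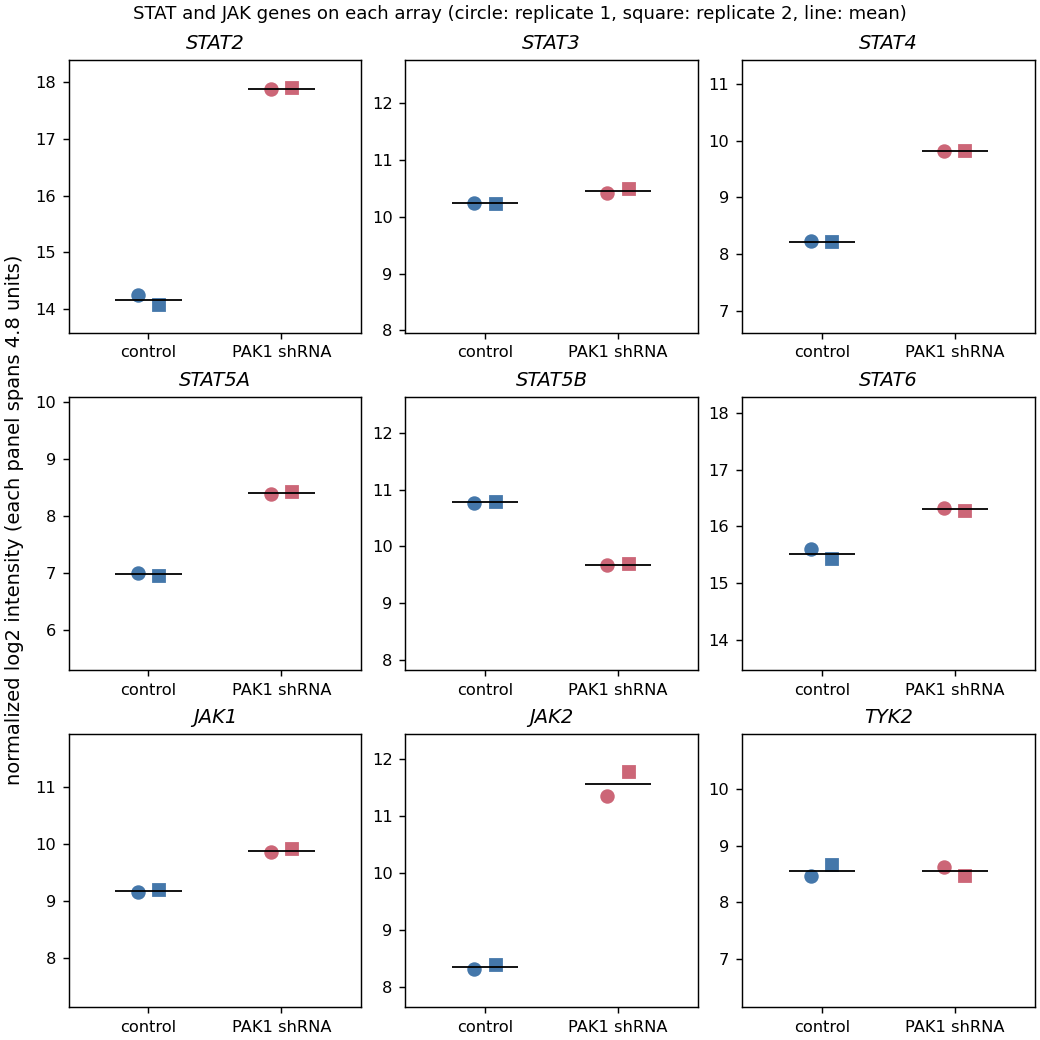
Normalized log2 intensity (vertical axis, the same span in each panel) of each gene on each of the 4 arrays, control in blue and PAK1 shRNA in red, with circles for replicate 1, squares for replicate 2 and lines for group means. STAT2 moved from 14.25 and 14.08 to 17.87 and 17.89, STAT5B is the one gene lower in the PAK1 shRNA cells, and the TYK2 groups overlap. Different genes have different probes, so levels are not comparable between panels.

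STAT2, the interferon STAT, changed most. It was at 14.25 and 14.08 on the control arrays and at 17.87 and 17.89 on the PAK1 shRNA arrays. The gap between the groups far exceeded the spread within them, with means of 14.16 ± 0.12 and 17.88 ± 0.01 (SD, n = 2). The log2 fold change was 3.72 (SE 0.09, adjusted p = 5.43e-07 by limma), a 13.2-fold rise, and 138 of the 22001 genes (0.627%) rose further. STAT2 was already bright in control cells: before normalization its spot read 25348 and 17947 in the controls and 193702 and 201679 in the PAK1 shRNA cells, without saturation. IRF9, the DNA-binding partner of STAT2, went from 10.67 and 10.48 to 13.71 and 13.78, a log2 fold change of 3.17 (SE 0.09). IRF9 lies outside the rule for named genes and was chosen after its values were seen.

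STAT6, whose probe lies 754.2 kb from that of STAT2 on chromosome 12, was at 15.61 and 15.43 in the controls and at 16.33 and 16.28 in the PAK1 shRNA cells. The groups did not overlap, and the log2 fold change was 0.79 (SE 0.09, adjusted p = 0.000275 by limma), a 1.73-fold rise. Before normalization the spot read 64215 and 44957 in the controls and 70110 and 68194 in the PAK1 shRNA cells. The size of this rise thus rests partly on the scaling between arrays. The log2 fold change of STAT2 exceeded that of STAT6 by 2.93 (combined SE 0.12). This and the other such gaps treat the standard errors of the genes as independent and carry no test.

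STAT4, a STAT of T and NK cells, was measured by 2 probes. The brighter probe, A_23_P68031, was at 8.23 and 8.21 in the controls and at 9.82 and 9.81 in the PAK1 shRNA cells. These values are close within each group and far apart between them, and the log2 fold change was 1.59 (SE 0.07, adjusted p = 5.45e-06 by limma), a 3.02-fold rise that 939 genes exceeded. The dimmer probe, A_23_P305198, was at 6.58 and 6.37 in the controls and at 7.04 and 7.09 in the PAK1 shRNA cells, a log2 fold change of 0.59 (SE 0.09, adjusted p = 0.00123 by limma). Both probes rose, by different amounts, and over the 9 genes 9 of the 11 probes passed the test when probes were fitted apart, beside 63.8% of all probes. The spot of the dimmer one read 92.2 and 68.1 in the controls before normalization, beside local backgrounds of 45 and 48, which leaves little room over the background.

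Because STAT4 is best known from leukocytes, the markers of other cell types were read beside it. Of 15 leukocyte markers, 15 were well above background on all 4 arrays by the scanner's flag, as was every one of the mammary epithelial markers. Per array 78.9% to 83.1% of all probes carried that flag, so these counts describe the lists only. Some leukocyte markers were dim, such as ZAP70 at 6.52 and 6.61 in the controls. Among the leukocyte markers 4 were higher and 0 lower, with CD14 at a log2 fold change of 1.32, CD79A at 0.48, ITGAM at 0.46 and CD2 at 0.35. Over all genes 31.0% were higher and 31.9% lower, the shares to set beside each marker count here. PTPRC, which defines leukocytes as CD45, was at 7.65 and 7.79 in the controls and at 7.85 and 7.84 in the PAK1 shRNA cells (log2 fold change 0.13, SE 0.08, adjusted p = 0.221 by limma). The summed normalized intensity of the 15 was 46163 and 42573 in the controls and 77316 and 78087 in the PAK1 shRNA cells. Without CD14, a choice made after its level was seen, it was 27165 and 24428 against 32638 and 29669. Most of that remaining sum came from CD4, at 14.09 and 13.98 in the controls, and CD79A, at 12.92 and 12.62 there. Of those 10 mammary epithelial markers, 4 were higher (LAMA3 at 1.34, CDH1 at 0.98, CDH3 at 0.90 and KRT6A at 0.31), 4 were lower (KRT5 at -1.14, TP63 at -1.13, KRT14 at -0.95 and KRT17 at -0.72), and ITGA6 and ITGB4 did not pass. Of the 7 fibroblast markers, 4 were tested, of which 3 were higher and 1 lower, and their summed intensity was 4712 and 3957 against 8006 and 7805. Of the endothelial markers 5 were tested, of which 1 was higher and 2 were lower, with sums of 1135 and 1174 against 948 and 921. The fibroblast marker PDGFRB and the endothelial marker TEK, both lower, passed the filter only through the controls, so their calls are tied to it. The part of other cell types in the STAT4 result was not tested.

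The paralogs STAT5A and STAT5B moved in opposite directions. STAT5A was at 6.99 and 6.95 in the controls and at 8.38 and 8.43 in the PAK1 shRNA cells, a log2 fold change of 1.43 (SE 0.07, adjusted p = 8.98e-06 by limma) or 2.70-fold. STAT5B was at 10.76 and 10.79 in the controls and at 9.67 and 9.69 in the PAK1 shRNA cells. STAT5B thereby fell by 1.10 on the log2 scale (SE 0.07, adjusted p = 2.41e-05 by limma), and 1661 genes fell further. Neither gene's groups overlapped, and their log2 fold changes lay 2.53 apart (combined SE 0.10). The probes are 112.2 kb apart on chromosome 17, and no probe of the 9 genes shared a run of 20 bases with a probe of another gene. The STAT5A spot was dim, at 133 and 103 in the controls and 273 and 281 in the PAK1 shRNA cells before normalization, and the size of its change moved with the processing. Its log2 fold change was 0.84 with the background model fitted on all spots and 2.26 with the scanner's processed signal, which changes both the background correction and the scaling, and it passed the test in both.

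STAT3, whose probes lie 2.4 and 10.9 kb from that of STAT5A, changed least of the genes called. The brighter probe, A_24_P116805, was at 10.25 and 10.22 in the controls and at 10.42 and 10.49 in the PAK1 shRNA cells, a log2 fold change of 0.22 (SE 0.07, adjusted p = 0.0363 by limma). The groups did not overlap, but the rise was only 1.17-fold. Before normalization the spot read 1636 and 1244 in the controls and 1126 and 1171 in the PAK1 shRNA cells, so the unscaled values lay the other way and the direction rests on the scaling between arrays. The other probe, A_23_P100795, is spotted 10 times on each array, and its mean was 9.29 and 9.49 in the controls and 9.30 and 9.36 in the PAK1 shRNA cells. Here the groups overlapped, with a log2 fold change of -0.07 (SE 0.09, adjusted p = 0.551 by limma), and its spots on 1 array varied with an SD of 0.139 to 0.145. That SD is over all 10 spots, while the mean given for the second control array leaves out 1 flagged spot. The call was lost when any 1 array was left out (log2 fold change 0.19 to 0.26, adjusted p 0.0708 to 0.175 by limma) and when the probes were averaged (0.08, adjusted p = 0.402 by limma).

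**Figure D2:**
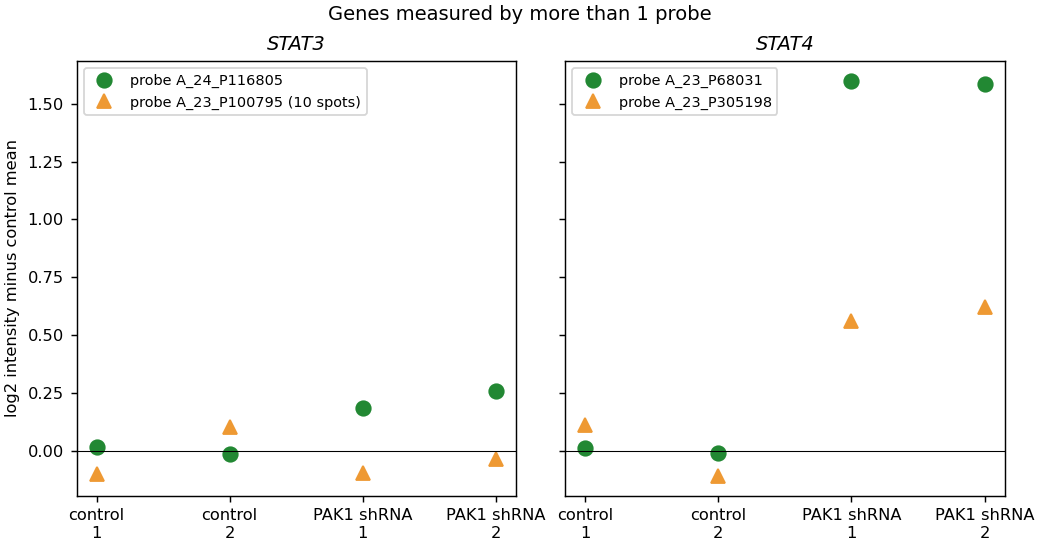
Log2 intensity of each probe of STAT3 and STAT4 on the 4 arrays, less that probe's control mean (vertical axis). The STAT4 probes both rose, by 1.59 and 0.59, while for STAT3 one probe rose by 0.22 and the probe with 10 spots had overlapping groups.

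Of the kinases, JAK2, which serves the receptors of erythropoietin, growth hormone, prolactin and interferon gamma, changed most. It was at 8.31 and 8.37 in the controls and at 11.36 and 11.77 in the PAK1 shRNA cells. The PAK1 shRNA arrays differed from each other more than for any other of the 9 genes, yet both lay far above the controls. Its log2 fold change was 3.22 (SE 0.13, adjusted p = 4.33e-06 by limma), a 9.33-fold rise, and 200 genes rose further.

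JAK1, the kinase that most cytokine and interferon receptors share, was at 9.16 and 9.19 in the controls and at 9.86 and 9.91 in the PAK1 shRNA cells. The groups did not overlap, and JAK1 rose by 0.72 on the log2 scale (SE 0.07, adjusted p = 0.000179 by limma), or 1.64-fold. Before normalization its spot read 746 and 586 in the controls and 770 and 790 in the PAK1 shRNA cells, so the size of this difference rests on the scaling between arrays. TYK2, the kinase of IFNAR1 and of the IL-12 receptor, was at 8.47 and 8.65 in the controls and at 8.63 and 8.47 in the PAK1 shRNA cells. These groups overlapped, with a log2 fold change of -0.01 (SE 0.10, adjusted p = 0.949 by limma). Before normalization the TYK2 spot read 451 and 395 in the controls and 323 and 296 in the PAK1 shRNA cells. The lack of a difference thus also rests on the scaling between arrays. The log2 fold change of JAK2 exceeded that of JAK1 by 2.51 (combined SE 0.15) and that of TYK2 by 3.23 (combined SE 0.17), and JAK1 exceeded TYK2 by 0.72 (combined SE 0.12).

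In order of change, the 9 genes ran from STAT2 through JAK2, STAT4, STAT5A, STAT6, JAK1, STAT3 and TYK2 to STAT5B. Some neighbours in that order lay close together: STAT4 and STAT5A differed by 0.16 (combined SE 0.10), STAT6 and JAK1 by 0.07 (combined SE 0.11) and STAT3 and TYK2 by 0.23 (combined SE 0.12). The gap between STAT2 and JAK2 was 0.50 (combined SE 0.16). The remaining gaps were 0.49 to 1.63, each more than 4 times its combined SE. The order also moved with the processing. STAT5A passed STAT4 with the processed signal (2.26 against 1.88), with an offset of 16 (1.74 against 1.71) and with the mean over probes (1.43 against 1.09), and JAK1 passed STAT6 without the second control array (0.73 against 0.70). With the background model fitted on all spots STAT5A (0.84) lay close to STAT6 (0.78).

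**Figure D3:**
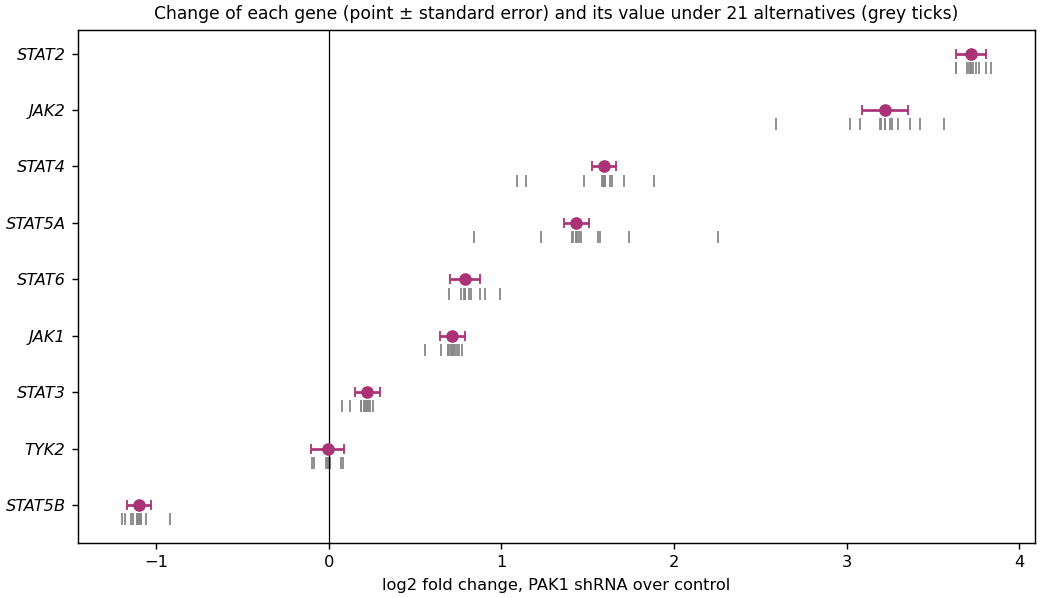
Log2 fold change of each gene, PAK1 shRNA over control (horizontal axis), as a point with its standard error, and the value under each of 21 alternatives as grey ticks. STAT2, JAK2, STAT4, STAT5A, STAT6 and JAK1 stay above 0 and STAT5B below 0 throughout, while TYK2 falls on both sides of 0. Alternatives that changed only the test, threshold, replicate block or filter, or kept flagged spots, repeat the main value.

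**Figure D4:**
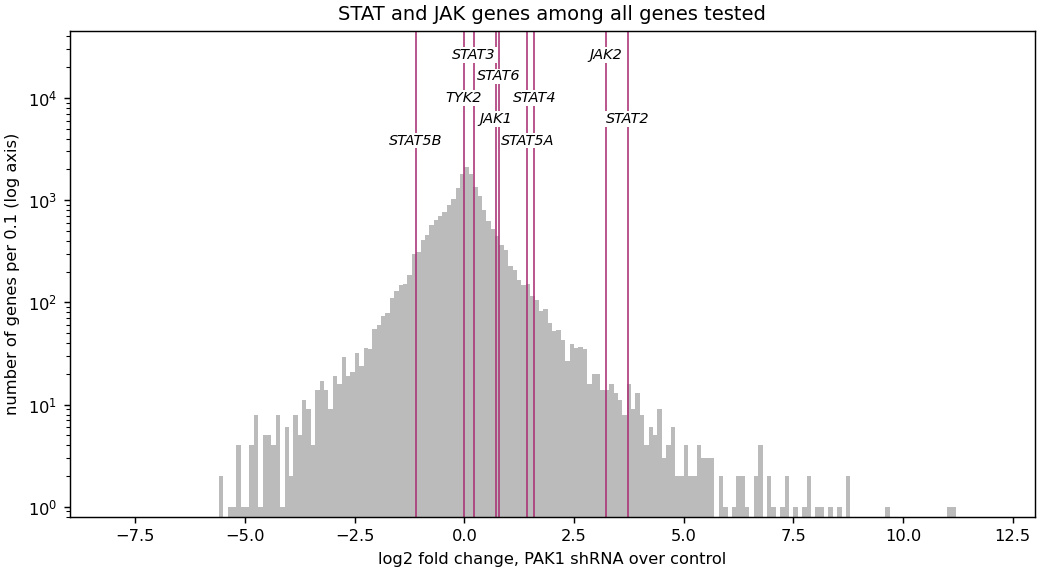
Distribution of the log2 fold change, PAK1 shRNA over control (horizontal axis), over the 22001 genes tested, with the number of genes per bin on a log axis and a line for each STAT and JAK gene. STAT2 and JAK2 stand in the right tail, where 138 and 200 genes lie beyond them.

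The rest of the pathway was read from 7 lists of ligands, receptor chains, brakes and target genes, some of which share members. Together they hold 133 genes tested, of which 81 (60.9%) were higher, 21 (15.8%) lower and 31 did not pass, beside 31.0% and 31.9% of all genes. Some list genes passed the filter only through the group where they were high. Where probes had to be well above background on all arrays, 74 list genes were higher and 17 lower. The lists were drawn up with earlier results of these data known, so the list shares describe the lists and support nothing further. The count of each list below is to be read beside the 31.0% and 31.9% of all genes.

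Of 42 ligands listed, 27 were tested, of which 16 were higher, 2 lower and 9 not called, with a median log2 fold change of 0.79. IFNB1, IL28B and CSF2 passed the filter only through the PAK1 shRNA arrays, where they were higher, and EPO only through the controls. Their calls are therefore tied to the filter. The called changes ran from -1.15 to 8.16, and the median moved with the processing, to 0.28 where probes had to be well above background on all arrays and to 0.40 with the background model fitted on all spots. IL28A, the type III interferon now named IFNL2, was at 8.05 and 8.02 in the controls and at 15.87 and 16.53 in the PAK1 shRNA cells (log2 fold change 8.16, SE 0.20). IL29, also a type III interferon (IFNL1), had a log2 fold change of 7.82 (SE 0.21), and IL6, the ligand that acts on STAT3, of 6.95 (SE 0.25). IL28B (IFNL3), a near copy of IL28A, was not well above background on either control array. By the measured ratio of the group means it was 128-fold higher in the PAK1 shRNA cells. With 1 group not told from background, the size of such a ratio is uncertain. IL11 of the IL-6 family fell by 1.15 (SE 0.09).

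Receptor chains moved both ways. Of 40 listed, 35 were tested, of which 16 were higher, 9 lower and 10 not called, with a median of 0.23 that ranged from 0.12 with the background model fitted on all spots to 0.39 with the processed signal. The largest rises among those above background on every array were IL7R (3.87, SE 0.17), IL22RA1 (2.71, SE 0.08) and IL15RA (2.70, SE 0.09), which bind IL-7, IL-22 and IL-15. The largest falls among chains above background on every array were EPOR, the erythropoietin receptor (-1.26, SE 0.07), IL27RA (-0.78, SE 0.08) and IL11RA (-0.69, SE 0.07). IL2RB was not well above background in the PAK1 shRNA cells. It was 3.92-fold lower there by the measured ratio of the group means, whose size is likewise uncertain. IL20RA, well above background on 1 of the 2 PAK1 shRNA arrays and so outside the rule for named genes, fell by 1.20 (SE 0.10). Both IL2RB and IL20RA passed the filter only through the controls, and IL10RA and PRLR, which were higher, only through the PAK1 shRNA arrays. Among the chains that pair with the kinases described here and were named after their values were seen, IFNAR1, which carries TYK2, fell by 0.57 (SE 0.08), while IFNAR2, which carries JAK1, was higher by 0.82 (SE 0.08). For the type III interferon receptor, IL28RA (IFNLR1) was higher by 0.51 (SE 0.11) and IL10RB by 0.38 (SE 0.10).

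The brakes of the pathway, which are the SOCS proteins, phosphatases and related inhibitors, held 18 genes, of which 8 were higher, 3 lower and 7 not called (median 0.13). Over all genes 62.9% passed in either direction, so this count describes the list only. USP18, which dampens signalling at IFNAR2, was at 9.21 and 9.35 in the controls and at 15.11 and 15.21 in the PAK1 shRNA cells (log2 fold change 5.88, SE 0.09). SOCS1, an inhibitor of the JAK kinases, was higher by 5.62 (SE 0.12) and SH2B3, an adaptor that restrains JAK2, by 0.80 (SE 0.09). CISH, an inhibitor that STAT5 induces, fell by 2.01 (SE 0.09), SOCS7 fell by 0.93 (SE 0.10) and SOCS4 fell by 0.42 (SE 0.08). SOCS3, the inhibitor that STAT3 induces, had a log2 fold change of 0.12 (SE 0.07, adjusted p = 0.183 by limma) and did not pass.

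Known target genes were grouped by the STAT that acts on them. All 22 STAT2 targets tested, of 23 listed, were higher, with a median log2 fold change of 6.70. RSAD2, the antiviral protein viperin, went from 7.12 and 6.98 to 17.89 and 18.24 (log2 fold change 11.02, SE 0.13), and IFIT2 and IFI27, both interferon-induced, were higher by 8.76 (SE 0.08) and 8.53 (SE 0.09). XAF1 was not well above background in the controls. It was 222-fold higher in the PAK1 shRNA cells by the measured ratio of the group means, whose size is again uncertain. Of 22 STAT3 targets tested, 16 were higher, 5 lower and 1 not called (median 0.76). A2M, among the higher ones, passed the filter only through the PAK1 shRNA arrays. ICAM1, an adhesion molecule, was higher by 3.35 (SE 0.10), and the acute-phase genes SAA2 and SAA1 by 2.99 (SE 0.18) and 1.78 (SE 0.13). SAA1 and SAA2 are near copies whose probes may share signal. BIRC5 (survivin), a gene of mitosis and survival, fell by 5.32 (SE 0.10), PIM1, a survival kinase, fell by 2.54 (SE 0.07) and HP (haptoglobin) fell by 1.77 (SE 0.10).

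STAT5 and STAT6 targets were mixed. Of 10 STAT5 targets tested, 4 were higher, 4 lower and 2 not called, with a median of 0.05 that changes sign with the processing (-0.07 without background correction, -0.03 with the processed signal and -0.02 with the mean over probes) and reaches 0.28 with median centring. BCL6, a repressor, was higher by 1.76 (SE 0.08), BCL2L1, which blocks cell death, by 1.13 (SE 0.08) and SOCS2 by 0.77 (SE 0.07). PIM1 and CISH, given above, and PIM2 (fell by 0.86, SE 0.10) were lower. IGF1, also lower, passed the filter only through the controls. Where probes had to be well above background on all arrays, the median of the STAT5 targets was 0.17. Of 12 STAT6 targets tested, 7 were higher, 1 lower and 4 not called (median 0.46, but 0.27 with the background model fitted on all spots and 0.28 where probes had to be well above background on all arrays). They included SOCS1, given above, the eotaxin CCL26 (1.89, SE 0.13) and the cadherin CDH26 (1.27, SE 0.09), and the lower one was CISH. IL13RA2, among the higher ones, passed the filter only through the PAK1 shRNA arrays. Each log2 fold change in these lists, apart from those said not to pass, had an adjusted p under 0.05 by limma.

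**Figure D5:**
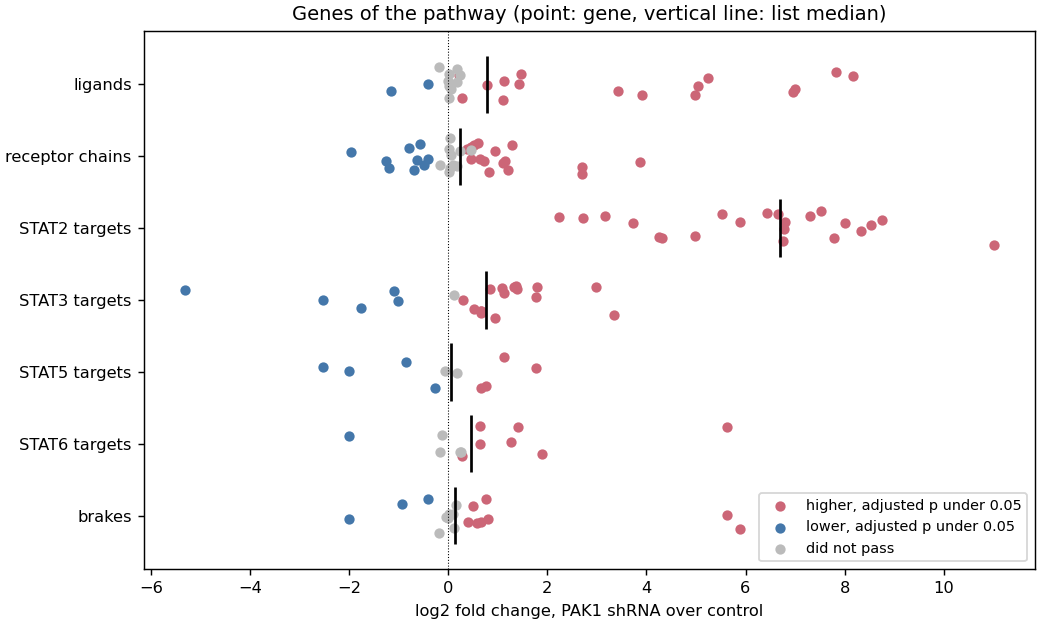
Log2 fold change, PAK1 shRNA over control (horizontal axis), of each gene tested in 7 pathway lists, coloured by its call, with a vertical line at the list's median. Every point of the STAT2 targets lies to the right of 0 (median 6.70), and the STAT5 targets lie on both sides (median 0.05). Genes not well above background in 1 group, such as IL2RB and XAF1, are drawn at their measured value.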

How the data were processed

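The 4 arrays of the human cell line were analysed, grouped by the titles in the labels. The study's mouse arrays were not analysed here. Per the labels and file headers, the authors labelled RNA in 1 colour, hybridised it to Agilent arrays and read them with Feature Extraction 9.5 (file header 9.5.3.1). The deposited scanner files hold spot intensities with background and outlier flags, and the deposited series table holds the authors' processed log2 values, made with normexp and quantile normalization according to the methods. Their array medians of 9.40 to 9.42 show no centring, they differed from the values used here by a median of 0.0273 to 0.0391 per array, and they served as an alternative. A series text speaks of tumor-derived cells, while the labels and methods name a cell line.

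Mean spot intensity was corrected with normexp (offset 50), quantile normalized and put on the log2 scale with limma 3.58.1 in R 4.3.3. Spots with flagged background were kept out of the fit of the normexp parameters, because the fit on all spots gave background means of -666 and -740 on the control arrays, against -9.19 and -12.1 without the 618 and 651 flagged spots there. Those arrays held 8 and 18 spots with local background over 100 and the PAK1 shRNA arrays 0, and the part of these spots in the shift was not tested. Control spots and outlier-flagged spots were left out, as were 27 probes with missing values. Spots of a probe were averaged, a gene took its brightest probe, and probes well above background on all arrays of at least 1 group were kept. Differences were tested with limma's empirical Bayes fit and Benjamini-Hochberg adjustment over all 22001 genes at 0.05, and the code was tested on simulated data. Per array, 78.9% to 83.1% of probes were well above background, and the number of arrays limits the precision. All arrays lay on 1 slide, so slide could not be fitted. All 11 probes were well above background on all 4 arrays, none saturated.

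The members and lists were chosen with earlier results of these data known. Named genes are the 9 genes with all their probes, PAK1, and from each list the 3 genes that rose most and the 3 that fell most of those past the threshold and well above background on all 4 arrays. For some list genes above background in 1 group only, the measured ratio is given. Alternatives changed the background correction, normalization, offset, filter, flags, probe rule, test, threshold and replicate block, used the authors' table, or left out 1 array.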

Additional observations from a re-analysis of the deposited data

How the results depend on the processing

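Under 21 alternatives the direction held for each gene but TYK2. Those that changed only the test, threshold, replicate block or filter, or kept flagged spots, left these log2 fold changes as they were. Such alternatives could not change a direction. The log2 fold change ranged from 3.64 to 3.84 for STAT2, 2.59 to 3.56 for JAK2, 1.09 to 1.88 for STAT4, 0.84 to 2.26 for STAT5A, 0.70 to 0.99 for STAT6, 0.56 to 0.77 for JAK1, -1.20 to -0.92 for STAT5B and -0.86 to -0.66 for PAK1. STAT3 ranged from 0.08 to 0.26 and lost its call in 11 of the 21. STAT6, JAK1 and PAK1 (-0.75) lost theirs only where 2-fold was also required. That rule left 4 of the 9 genes higher, 1947 genes of all higher and 1971 lower, and 10 list genes lower. TYK2, never called, turned to 0.0046 with the processed signal, 0.0056 with cyclic loess and 0.0037 with median centring, and without 1 array it lay between -0.10 and 0.084, with 0.071 without the second PAK1 shRNA array. The median of the STAT5 targets turned to -0.070 without background correction, -0.033 with the processed signal and -0.018 with the mean over probes. The causes were not tested.

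With an unpaired Student t-test in place of limma's fit, adjusted, 4370 genes were higher. The study's methods give that test for its general statistics and limma for the arrays. Leaving out 1 array left 6 of the 9 genes higher and 1 lower each time, and 5757 to 6400 genes higher and 6037 to 6563 lower over all genes. The processed signal and median centring moved the median of all genes to 0.119 and 0.137, and the higher share of all calls from 49.3% to 54.2% and 55.8%. The replicate numbers did not pair the arrays (r = 0.00881 over 27517 probes); with the number as a replicate block, 7 of the 9 genes were higher and 1 lower, 6973 genes were higher and 7070 lower over all, and STAT3 had an adjusted p of 0.0498 (limma). A block for the slide could not be fitted, as all arrays share 1 slide.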
